A study of Homo sapiens with 36 samples.

Results

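EA.hy926 is a human line made by fusing umbilical vein endothelial cells with A549, a lung carcinoma line of epithelial origin. The genes described here are 10 epithelial genes of that hybrid: the keratins KRT7, KRT8, KRT18 and KRT19, the adhesion and junction genes EPCAM, CDH1, CLDN4 and LSR, the surface receptor gene CDCP1 and the splicing factor gene ESRP2. They were chosen by name, as the entries with these symbols in the count tables, and all 10 were found among 18048 genes with values. Of these, 7 had a mean of at least 10 normalized reads in every table and were tested, and CDH1, KRT19 and ESRP2 were low, with a mean below 10 in every table. RNA was sequenced from 36 libraries in 12 groups of 3 biological replicates, and the study exposed the cells to perfluorooctanoic acid (PFOA), a persistent fluorinated surfactant, to describe how transcripts respond to its concentration. The labels give every sample the genotype WT. The control groups had 0.05% DMSO as vehicle, and the labels do not state the DMSO content of the PFOA groups. The 48 h groups had vehicle or 1, 10 or 100 µM PFOA and were lysed in TRIzol from the dish. The 6-week and 12-week groups had vehicle or 1, 10 or 100 nM PFOA and were collected as cell suspensions during passaging, so exposure time, dose range and harvest differed together. It is 1 hybrid line, and the labels do not say whether the flasks of a group were kept apart from the start of the long exposures.

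In simple epithelia such as those lining lung airways and glands, KRT8 and KRT7 (type II keratins) pair with KRT18 and KRT19 (type I keratins) to form intermediate filaments. E-cadherin, encoded by CDH1, holds epithelial cells together, and EPCAM is an adhesion molecule of most carcinomas. Claudins such as CLDN4 seal tight junctions between neighbouring cells, and LSR marks the corners where 3 cells meet. CDCP1 is a transmembrane substrate of Src family kinases, and ESRP2 directs splicing toward epithelial isoforms. Endothelial cells express few of these genes at high level, and mesenchymal cells typically silence CDH1, EPCAM and the ESRP genes through repressors such as ZEB1 and SNAI1.

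The libraries held 17815292 to 19466331 reads and 14192 to 15050 detected genes. Of 20 endothelial genes, 18 had a mean of at least 10, led by ENG, EGFL7, TIE1, ICAM2, ESAM and NOS3, while KDR (mean 1.93) and CLDN5 (mean 0.0208) were low. Of 16 lung and A549 genes, 8 did, led by ALDH1A1, ABCA3, AGER and NAPSA, while NKX2-1 (mean 0.0241) and the surfactant gene SFTPC (mean 0.371) were near 0. Among 8 mesenchymal genes and repressors with values, VIM averaged 76281, SNAI1 607, ZEB1 318 and ZEB2 214 normalized reads. Of 7 leukocyte genes CD68 alone reached a mean of 10, with PTPRC at 0.0638, and of 7 fibroblast genes COL1A1 alone did, with a mean of 11.1. The share of reads in 84 cytosolic ribosomal protein genes ran from 9.37% to 22.2% and differed within groups as well as between them. Libraries also differed in scale: the authors' size factors spread so that 1 read was worth 0.737 to 1.85 normalized reads.

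The 10 genes spanned nearly the whole range of expression. Per kilobase of the longest transcript, the mean level over 36 libraries was 630 RPM (reads per 1000000 reads of the library) for KRT18, 609 for KRT7 and 240 for KRT8. It was 1.58 for LSR, 1.42 for CDCP1, 0.386 for EPCAM, 0.267 for CLDN4, 0.253 for KRT19, 0.0524 for ESRP2 and 0.000301 for CDH1. The order therefore begins with a keratin trio. The surface genes and KRT19 follow at a small fraction of its level, ESRP2 is lower still, and CDH1 is at the limit of counting. Among the lower genes LSR and CDCP1 exchanged places between exposure times, and EPCAM, CLDN4 and KRT19 overlapped. With the longest protein-coding transcript in place of the longest transcript, KRT18 came to 775 and KRT8 to 282 and the order of the 10 genes was unchanged. The longest CLDN4 transcript (4163 bases in GENCODE) exceeds the RefSeq span of the gene (1695 bases), which lowers its value per kilobase.

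**Figure D1:**
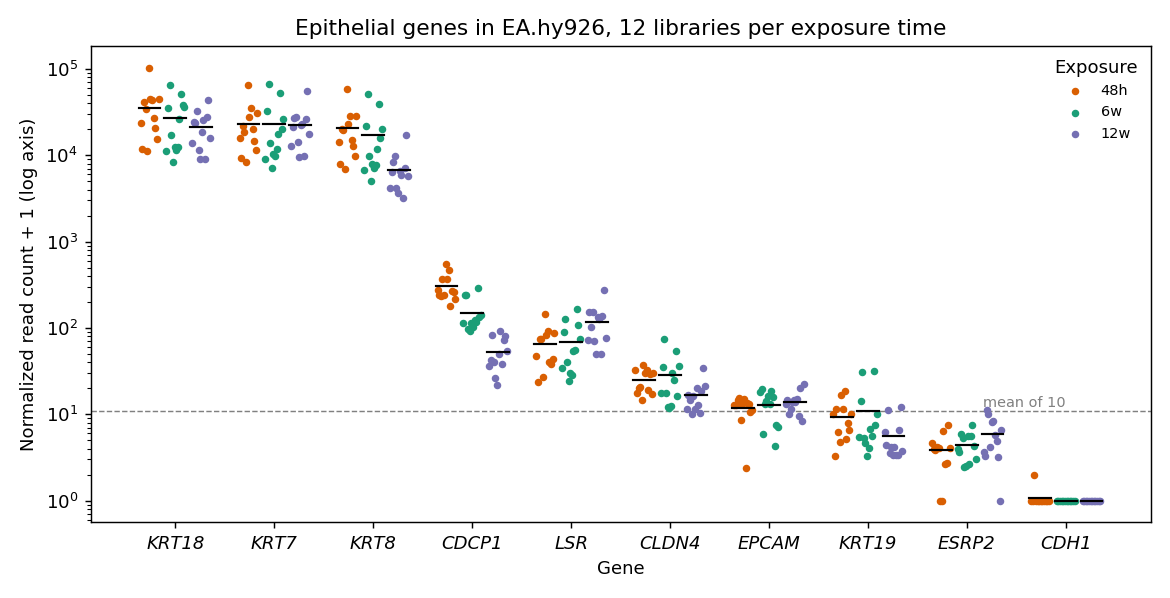
Normalized read count plus 1 (log axis) of the 10 epithelial genes in every library, coloured by exposure time, with 12 libraries and a black bar at their mean for each time. The dashed line marks a mean of 10. KRT18, KRT7 and KRT8 sit between 3184 and 103609, CDCP1 is lower at 12 weeks than at 48 h in every library, and CDH1 is above 0 in 1 library.

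The keratin genes KRT7 (chr12:52233243-52255853), KRT8 (chr12:52897191-52949860) and KRT18 (chr12:52948855-52952906) lie in the type II keratin cluster of chromosome 12 in the RefSeq annotation of GRCh38.p14, KRT18 being the one type I gene there. At 48 h KRT18 ran from 11087 to 103609 normalized reads with a median of 30363, at 6 weeks from 8461 to 65931 with a median of 21621, and at 12 weeks from 8980 to 43411 with a median of 21177. KRT7 had medians of 19357, 15673 and 21974 at the same times, within a range of 7068 to 66814 over all libraries. KRT8 had medians of 17160, 10903 and 6164. By mean over all libraries KRT18 ranked 92nd, KRT7 108th and KRT8 175th of 18048 genes. Together they took 0.148% to 0.671% of all reads, and the highest library of each held 9.45 times (KRT7), 12.2 times (KRT18) and 18.5 times (KRT8) the lowest. The annotated spans of KRT8 and KRT18 overlap by 1006 bases on opposite strands, so without strand the reads there cannot be assigned. The pseudogene and antisense entries KRT8P41, KRT18P55, KRT19P2, KRT7-AS and EPCAM-DT held no value in any table, so reads of such copies may be counted in the genes.

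Among the surface genes, CDCP1 (chr3:45082277-45146482) had a mean of 305 normalized reads at 48 h, 149 at 6 weeks and 52.2 at 12 weeks. LSR (chr19:35249002-35267964) had means of 63.7, 68.5 and 115 at these times, CLDN4 (chr7:73830996-73832690) 24.1, 27.5 and 15.5, and EPCAM (chr2:47369311-47387020) 10.95, 11.8 and 12.9. The means of LSR and CDCP1 were thus ordered oppositely over exposure time, whereas EPCAM lay at the edge of the tested range. EPCAM rests on 1 to 23 reads per library, 451 in all, so single reads move its value. In bulk RNA a smaller share of cells expressing a gene and less of its RNA per cell cannot be told apart.

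The 3 low genes differed in kind. KRT19 (chr17:41523617-41528308), the partner keratin often abundant in carcinomas, was present in all 36 libraries, with 240 reads in all and a mean of 8.39 normalized reads at 48 h, 9.81 at 6 weeks and 4.53 at 12 weeks. ESRP2 (chr16:68229033-68236127) had reads in 33 of 36 libraries, 135 in all, with means of 2.84, 3.38 and 4.87. CDH1 (chr16:68737292-68835537) was represented by 1 read, in 1 µM replicate 3 at 48 h, and by 0 reads in the other 35 libraries. A count of 0 allows up to 0.154 to 0.168 RPM in a library, since 3 reads is the upper limit of a 0 and the interval covers counting error only. E-cadherin transcripts were therefore not detectable at this depth in 35 libraries, beside KRT18 transcripts at 608 RPM or more.

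RefSeq start-site windows of 300 bases (250 before the start, 50 from it on) were at hand for 4 of the 10 genes. The window listed for KRT8 lies wholly inside its annotated span and is not shown. The other 3, those of LSR, CDCP1 and CLDN4, are shown because the comparisons by dose rest on these surface genes beside the keratins. They lie at chr19:35248752-35249051 (plus strand) for LSR, chr3:45146329-45146628 (minus strand) for CDCP1 and chr7:73830746-73831045 (plus strand) for CLDN4 in GRCh38.p14, and capitals mark matches to 3 motifs searched on both strands.
LSR: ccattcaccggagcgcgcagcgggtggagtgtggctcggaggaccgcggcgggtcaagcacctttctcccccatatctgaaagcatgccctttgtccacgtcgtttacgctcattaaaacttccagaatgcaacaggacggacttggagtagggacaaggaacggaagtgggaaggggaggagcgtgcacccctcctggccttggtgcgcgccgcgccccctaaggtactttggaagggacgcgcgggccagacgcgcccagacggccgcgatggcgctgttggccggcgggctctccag
CDCP1: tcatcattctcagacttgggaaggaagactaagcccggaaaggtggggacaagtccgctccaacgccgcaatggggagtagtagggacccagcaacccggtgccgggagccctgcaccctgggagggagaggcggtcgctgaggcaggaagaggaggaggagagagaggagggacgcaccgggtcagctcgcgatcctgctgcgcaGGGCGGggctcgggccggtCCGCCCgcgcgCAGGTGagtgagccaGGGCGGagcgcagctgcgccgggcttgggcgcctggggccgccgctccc
CLDN4: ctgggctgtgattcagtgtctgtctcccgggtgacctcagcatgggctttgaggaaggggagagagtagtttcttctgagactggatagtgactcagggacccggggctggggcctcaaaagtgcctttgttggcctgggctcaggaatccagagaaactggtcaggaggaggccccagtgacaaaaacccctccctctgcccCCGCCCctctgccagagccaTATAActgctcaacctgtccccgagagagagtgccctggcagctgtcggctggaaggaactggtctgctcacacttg
The E-box of the repressors ZEB1 and SNAI1 (CAGGTG on either strand) occurred in the CDCP1 window alone, 14 bases before the listed start. Of 35116 RefSeq windows 20.6% hold 1 or more. The GC box (GGGCGG on either strand, in 45.0% of windows) occurred 3 times in CDCP1 and 1 time in CLDN4. The listed CDCP1 start lies inside the annotated span of the gene, which ends at base 45146482, so its marked matches lie within that span. The TATAA motif (TATAA on either strand, in 20.4%) occurred in CLDN4 alone, 27 bases before the start. None of these matches overlapped another. The windows of LSR and CDCP1 held 29 and 27 CG dinucleotides with 64.3% and 70.3% G or C, and that of CLDN4 held 5 with 59.0%, against medians of 14 and 58.7% over all windows.

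At 6 weeks 6 of the 7 tested genes had lower values in the 10 nM group than in the controls and EPCAM had higher ones, and none of the differences passed limma over the 12 libraries of that time. KRT18 had 51304, 38213 and 36293 normalized reads in the control libraries and 17185, 8461 and 12574 at 10 nM. KRT7 had 52513, 20271 and 25962 in the controls and 13798, 7068 and 10388 at 10 nM. KRT8 had 38794, 15800 and 19930 in the controls and 9885, 5022 and 7866 at 10 nM. All 3 keratins were thus lower in every 10 nM library than in any control library. LSR had 166, 108 and 72.8 normalized reads in the controls and 39.8, 23.6 and 29.1 at 10 nM, and CDCP1 had 291, 131 and 142 against 97.0, 90.7 and 113. For both, the groups did not overlap in normalized reads. In RPM CDCP1 overlapped, with 6.01, 6.62 and 8.05 at 10 nM against 9.28, 6.29 and 7.45 in the controls, whereas LSR and the keratins did not. CLDN4 had 53.3, 15.3 and 35.4 in the controls and 16.5, 11.1 and 10.7 at 10 nM, with 1 treated library above the lowest control.

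EPCAM ran against the others at 6 weeks, with 3.23, 6.57 and 6.07 normalized reads in the controls and 12.1, 13.3 and 15.3 at 10 nM. These are 2, 6 and 6 reads against 14, 18 and 20. In RPM the 6-week controls held 0.103 to 0.319 of EPCAM, below the 0.526 to 0.731 of the 48 h controls and overlapping the 0.225 to 1.23 of the 12-week controls. Of the low genes, KRT19 followed the keratins with 30.7, 6.57 and 9.10 in the controls and 4.33, 3.69 and 2.30 at 10 nM.

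The log2 differences at 10 nM were -1.83 ± 0.50 (SE) for LSR, -1.76 ± 0.57 for KRT18, -1.66 ± 0.62 for KRT8, -1.59 ± 0.63 for KRT7, -1.24 ± 0.58 for CLDN4, -0.81 ± 0.37 for CDCP1 and 1.25 ± 0.48 for EPCAM. The 7 tested genes had a median of -1.59, beside 0.05 over all 12201 genes tested. With limma on log2(signal + 1) and Benjamini-Hochberg adjustment over all genes, 0 of the 7 passed, with adjusted p of 0.0953 for LSR, KRT18, KRT8 and EPCAM, 0.0955 for KRT7, 0.111 for CDCP1 and 0.119 for CLDN4. At an unadjusted p under 0.05 the count was 6 of 7 among these genes and 5365 of 12201 (44%) among all. No gene at all passed in this comparison (0%), and 5 of the 7 being lower in every library stands beside 29.8% of all tested genes, 1 of the 7 being higher beside 30.6%. The call turned on the setting. DESeq2 called 3706 genes (30.4%), among them KRT7, KRT8, KRT18 and LSR, whereas edgeR called 0. A limma fit to the 6 libraries of the compared groups called 4742 genes (38.9%) and 5 of the 7. With the replicate number as a block in that fit, limma called 7721 genes (63.3%) and all 7, with adjusted p from 9.29e-08 for KRT18 to 0.0230 for EPCAM. That fit was added after the data were seen, because this was the 1 pair of groups of 18 whose same-numbered libraries all deviated together, and it leaves 2 residual degrees of freedom per gene against 8 in the fit to 12 libraries. The block over all 12 libraries called 0. Leaving out 1 nM replicate 1, a library outside this comparison, gave 5946 genes (48.7%) and 6 of the 7, and leaving out 1 nM replicate 3 gave 3203 (26.3%) and 5.

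At 100 nM the same genes had the same sign. KRT18 had 11613, 12477 and 26058 normalized reads, KRT7 9829, 11769 and 17548, and KRT8 7136, 7640 and 11920, all below every control. LSR had 27.6, 52.4 and 53.8, CDCP1 101, 122 and 115, and EPCAM 12.3, 17.5 and 14.8. CLDN4, with 11.5, 29.1 and 24.1, overlapped the controls. In RPM KRT7 (1007 as the highest, 969 as the lowest control) and CDCP1 (7.79 and 6.29) overlapped them too, whereas KRT18, KRT8, LSR and EPCAM did not. The log2 differences were -1.41 ± 0.57 for KRT18, -1.41 ± 0.62 for KRT8, -1.34 ± 0.50 for LSR, -1.26 ± 0.63 for KRT7, -0.64 ± 0.37 for CDCP1, -0.59 ± 0.58 for CLDN4 and 1.37 ± 0.48 for EPCAM, each with a limma adjusted p of 0.272 or more. Without control replicate 1, the control library highest in both, the value was -0.28 for CDCP1 and -0.21 for CLDN4, and at 10 nM -0.45 for CDCP1. CLDN4 at 100 nM also ran to -1.07 without control replicate 2 and was -0.21 without 100 nM replicate 1. Of all tested genes 24.4% were lower and 22.9% higher in every 100 nM library than in every control, and 0% passed limma. The 10 nM and 100 nM groups share their controls, so the likeness of their values is not a second observation.

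The 1 nM group did not form a block. Its replicate 1 had 11296 normalized reads of KRT18, 9167 of KRT7, 6768 of KRT8 and 33.0 of LSR, near the 10 nM libraries, whereas its replicate 3 had 65931, 66814, 51345 and 127, at or above the controls. EPCAM was low in that replicate 3 (4.94), with 17.2 in replicate 1 and 18.6 in replicate 2. Its log2 difference from the controls was 1.08 ± 0.48 with a limma adjusted p of 1.00, and 1.63 without replicate 3.

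**Figure D2:**
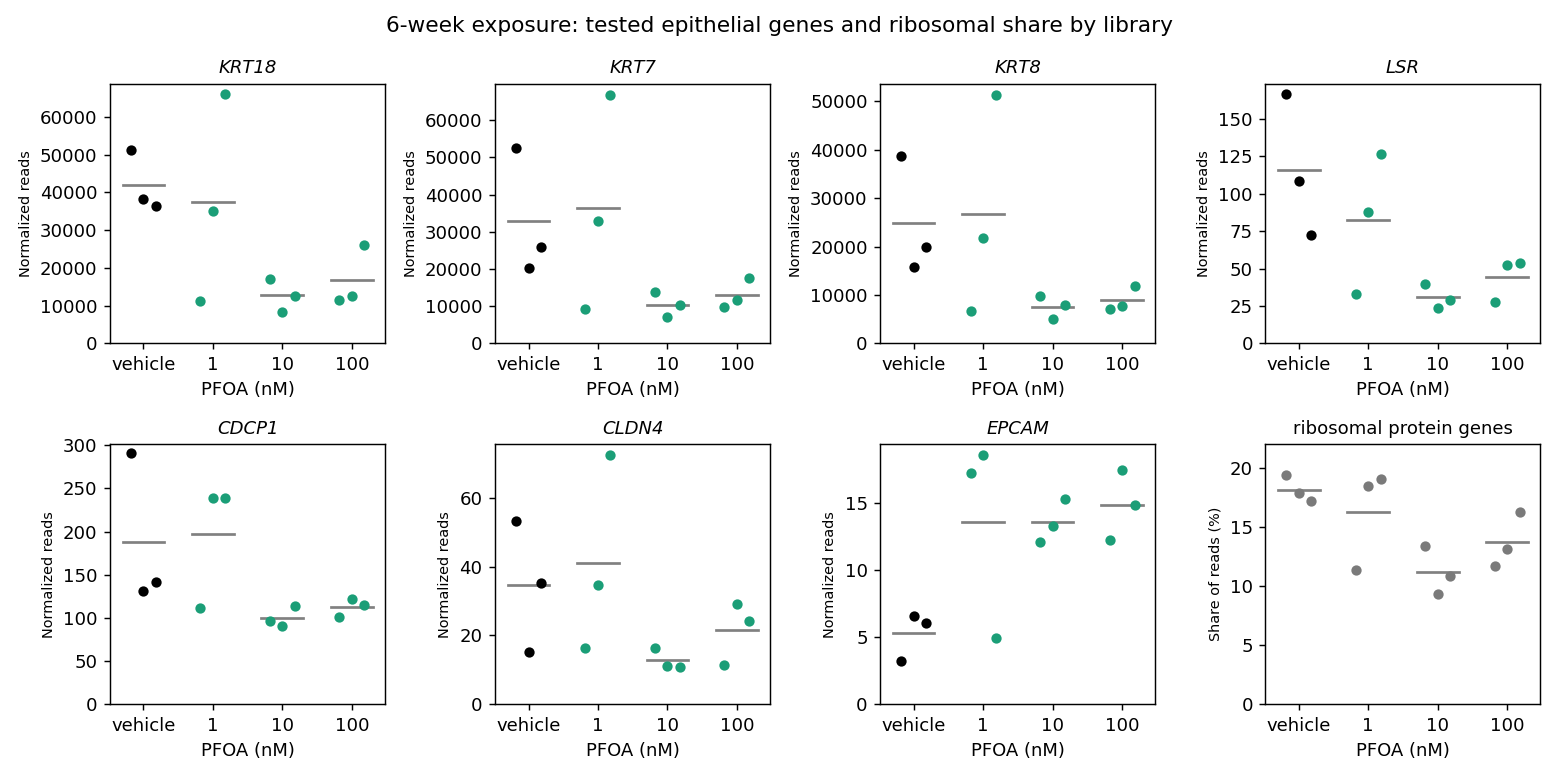
Normalized read counts of the 7 tested genes and the share of reads in ribosomal protein genes (%) for each 6-week library, by PFOA concentration (nM), with 3 libraries and a bar at the mean per group. In the 10 nM and 100 nM groups the keratins, LSR and CDCP1 lie below the controls and EPCAM above, and the ribosomal share is 9.37% to 16.3% against 17.2% to 19.4% in the controls.

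A second measure moved with these values. The ribosomal share was 17.2% to 19.4% in the 6-week controls, 9.37% to 13.4% at 10 nM and 11.7% to 16.3% at 100 nM, and 1 nM replicate 1, the library with low keratins, had 11.4% against 18.5% and 19.0% in the other two. Over all 36 libraries Pearson's r of log2(signal + 1) with that share was 0.920 for LSR (rho 0.924), 0.886 for KRT7 (rho 0.915) and 0.838 for KRT18 (rho 0.844), each with a permutation p of 1e-05, the smallest that the permutations can give (adjusted 1.9e-05 over 11951 genes). It was 0.556 for KRT8 (rho 0.521, permutation adjusted p 0.000639 and 0.00194) and 0.454 for CLDN4 (rho 0.469, permutation adjusted p 0.00776 and 0.00551). For CDCP1 r was 0.140 (rho 0.156, permutation p 0.414 and 0.361) and for EPCAM -0.23 (rho -0.12, permutation p 0.176 and 0.483), and neither passed. So 5 of 7 passed, where 80.7% of all tested genes did, and 4.08% of all tested genes had a higher r than LSR. The share was permuted over all 36 libraries without regard to group or exposure time. Libraries of 1 group or time share dose and harvest, so these p-values do not measure an association of independent samples.

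Within single exposure times the keratins and LSR held this relation closely. The r of KRT18 was 0.947 at 48 h, 0.974 at 6 weeks and 0.965 at 12 weeks, that of LSR 0.947, 0.960 and 0.913, and that of KRT8 0.941, 0.928 and 0.852. KRT7 had 0.930, 0.936 and 0.874, and CLDN4 0.762, 0.816 and 0.393. CDCP1, with no relation over all libraries together, had 0.731, 0.831 and 0.641 within the times. EPCAM had -0.14, -0.64 and 0.0152. Leaving out the 2 libraries farthest from the median share, r was 0.904 for LSR, 0.866 for KRT7, 0.815 for KRT18, 0.527 for KRT8, 0.406 for CLDN4, 0.175 for CDCP1 and -0.27 for EPCAM. The scale of the signal itself mostly rose with the share. In 10 µM replicates 2 and 3 at 48 h (shares of 10.1% and 20.9%), 1 read was worth 0.763 and 1.74 normalized reads. In RPM these 2 libraries had 788 and 3062 of KRT18, 1.84 and 4.26 of LSR, but 16.9 and 16.2 of CDCP1 and 0.976 and 1.08 of CLDN4. The part of the scaling in each r was not tested.

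With the ribosomal share as a covariate, the 6-week log2 differences at 10 nM were -0.28 for LSR, 0.167 for KRT18, 0.343 for KRT8, 0.457 for KRT7, 0.192 for CLDN4, 0.0375 for CDCP1 and 0.65 for EPCAM. With the first principal component of the table instead they were -0.59, -0.34, 0.0362, 0.128, 0.0974, 0.0072 and 0.50 in that order. Marker lists of other cell types also differed between these groups. Their medians below are of deposited signal and their sums are in RPM, which are different scales. Of 7 tested mesenchymal genes and repressors 6 had a higher value at 10 nM (median log2 difference 0.85). The summed level of the list, which is mostly VIM (mean 4290 RPM over 36 libraries), was 5595 to 6267 RPM against 1872 to 4137 in the controls. Of 18 endothelial genes 10 had a lower value (median -0.35), with sums of 2390 to 2596 against 2770 to 3851 RPM. Of 8 lung and A549 genes 6 had a lower value (median -0.83), although the sums of that list were 93.9 to 135 against 59.4 to 73.6 RPM. Those sums are mostly ALDH1A1 and ABCA3 (means of 48.4 and 34.9 RPM over 36 libraries). None of these genes passed limma, and the part of the lists in the keratin values was not tested. At 6 weeks the ribosomal share of the 10 nM group does not overlap that of the controls, so these fits and the dose cannot be told apart. Scaling by total reads, an alternative added after the data were seen, moved the median of all genes from 0.05 to 0.72, and against that shifted median the keratins and LSR were lower, with -1.17 for LSR, -1.09 for KRT18, -0.99 for KRT8 and -0.92 for KRT7 on that scale. EPCAM was 1.82 and CDCP1 -0.15 there.

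**Figure D3:**
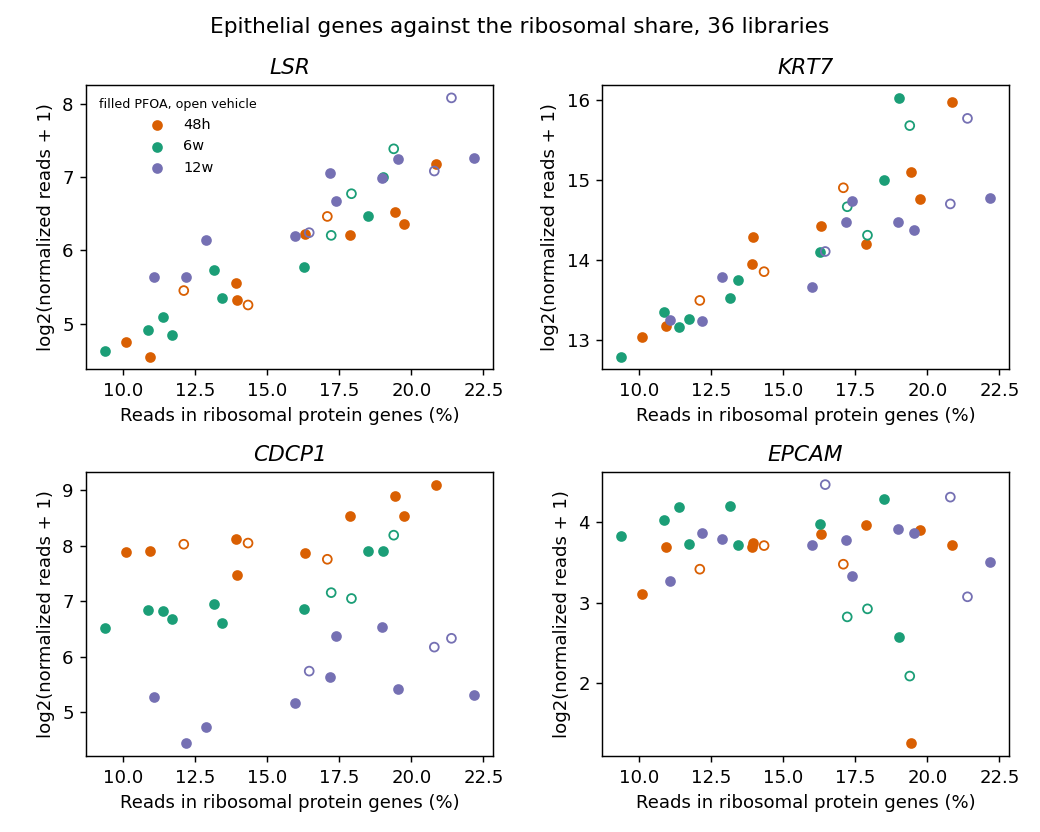
log2(normalized reads + 1) of LSR, KRT7, CDCP1 and EPCAM against the share of reads in ribosomal protein genes (%) in 36 libraries, coloured by exposure time, with open circles for vehicle and filled circles for PFOA. LSR (r = 0.920) and KRT7 (r = 0.886) climb along 1 line, CDCP1 lies lower at 12 weeks than at 48 h at any share, and EPCAM shows no common slope.

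At 48 h the micromolar doses left the keratin libraries overlapping. KRT18 had 20632, 15377 and 44988 normalized reads in the controls, 23867, 11898 and 40893 at 1 µM, 34037, 11087 and 103609 at 10 µM, and 45240, 44057 and 26689 at 100 µM. KRT7 had 14773, 11508 and 30609 in the controls and 27833, 35003 and 19922 at 100 µM. The log2 difference at 100 µM was 0.63 ± 0.75 for KRT18 and 0.63 ± 0.67 for KRT7, each with a limma adjusted p of 0.993. These were 0.304 and 0.338 without control replicate 2, and 1.08 and 1.04 without control replicate 3. EPCAM had 12.1, 9.68 and 10.1 in the controls and 13.98, 1.36 and 12.4 at 100 µM, a log2 difference of -0.57 ± 0.61 (limma adjusted p 0.993). That sign came from replicate 2, which held 1 EPCAM read, and without it the difference was 0.289. It was -1.04 without replicate 1 and -0.96 without replicate 3. Libraries of 1 group differed widely in KRT18, with a pooled SD of 0.864 within groups on the log2 scale over all times, against 0.515 for the median tested gene.

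At 12 weeks and 10 nM CDCP1 and CLDN4 had the lowest log2 differences of the 7 tested genes, as CLDN4 had at 1 nM. CDCP1 had 71.3, 79.6 and 52.6 normalized reads in the controls and 39.0, 25.6 and 20.8 at 10 nM, a log2 difference of -1.25 ± 0.43. CLDN4 had 17.8, 33.3 and 20.3 in the controls, 10.4, 15.9 and 13.6 at 1 nM (-0.76 ± 0.41, and -0.50 without control replicate 2) and 9.10, 15.2 and 10.4 at 10 nM (-0.96 ± 0.41). In these groups the normalized reads did not overlap the controls, beside 0.805% of all tested genes that were lower in every 1 nM library and 1.22% in every 10 nM library. In RPM CLDN4 at 10 nM overlapped the controls (1.01 as its highest, 0.844 as the lowest control), whereas CDCP1 at 10 nM and CLDN4 at 1 nM did not. CDCP1 at 10 nM had a limma adjusted p of 0.655, CLDN4 0.655 at 10 nM and 1.00 at 1 nM, and 0% of genes passed. At 100 nM CDCP1 had 48.7, 92.1 and 37.6 and CLDN4 19.1, 11.8 and 9.40, both overlapping the controls. The log2 difference at 100 nM was -0.27 for CDCP1, -0.79 for CLDN4, -0.83 for KRT8 and -0.80 for KRT7. The keratins overlapped at every dose: KRT18 had 27572, 43411 and 15862 in the controls and 32937, 11556 and 9004 at 10 nM.

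Over all 15 comparisons (9 doses, 3 dose trends and 3 differences between the long exposures), 0% of all tested genes and none of the 7 tested members passed limma. Its count of genes with an unadjusted p below 0.05 ran from 6 to 5447. DESeq2 called 0 to 3706 genes, and edgeR none in each. The 6-week dose trend was like the 10 nM comparison, with 6 of the 7 genes at an unadjusted limma p under 0.05, 5447 genes (44.6%) in all, and 5 of the 7 called by DESeq2 (KRT18, KRT7, KRT8, LSR and CDCP1 among 3174 genes, 26% of all). Without 1 nM replicate 1, limma called 7084 genes (58.1%) and 6 of the 7 there.

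Across exposure times CDCP1 had separate ranges. In RPM, which each library's own total fixes, CDCP1 had 11.2 to 18.4 at 48 h (median 16.4), 6.01 to 9.41 at 6 weeks (median 7.46) and 1.43 to 4.15 at 12 weeks (median 2.43), controls and treated alike. The 3 ranges did not overlap. The same held for 0.326% of 11951 tested genes between 48 h and 6 weeks in this direction, 1.87% between 6 and 12 weeks, and 2.24% between 48 h and 12 weeks, and for no other of the 7. In deposited signal, whose tables may have been scaled apart, CDCP1 overlapped between 48 h and 6 weeks and, narrowly, between 6 and 12 weeks (90.7 as the lowest at 6 weeks, 92.1 as the highest at 12), but not between 48 h and 12 weeks (1.69% of all tested genes). Time, passage, harvest and sequencing of the tables cannot be told apart, so no test was made across times.

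**Figure D4:**
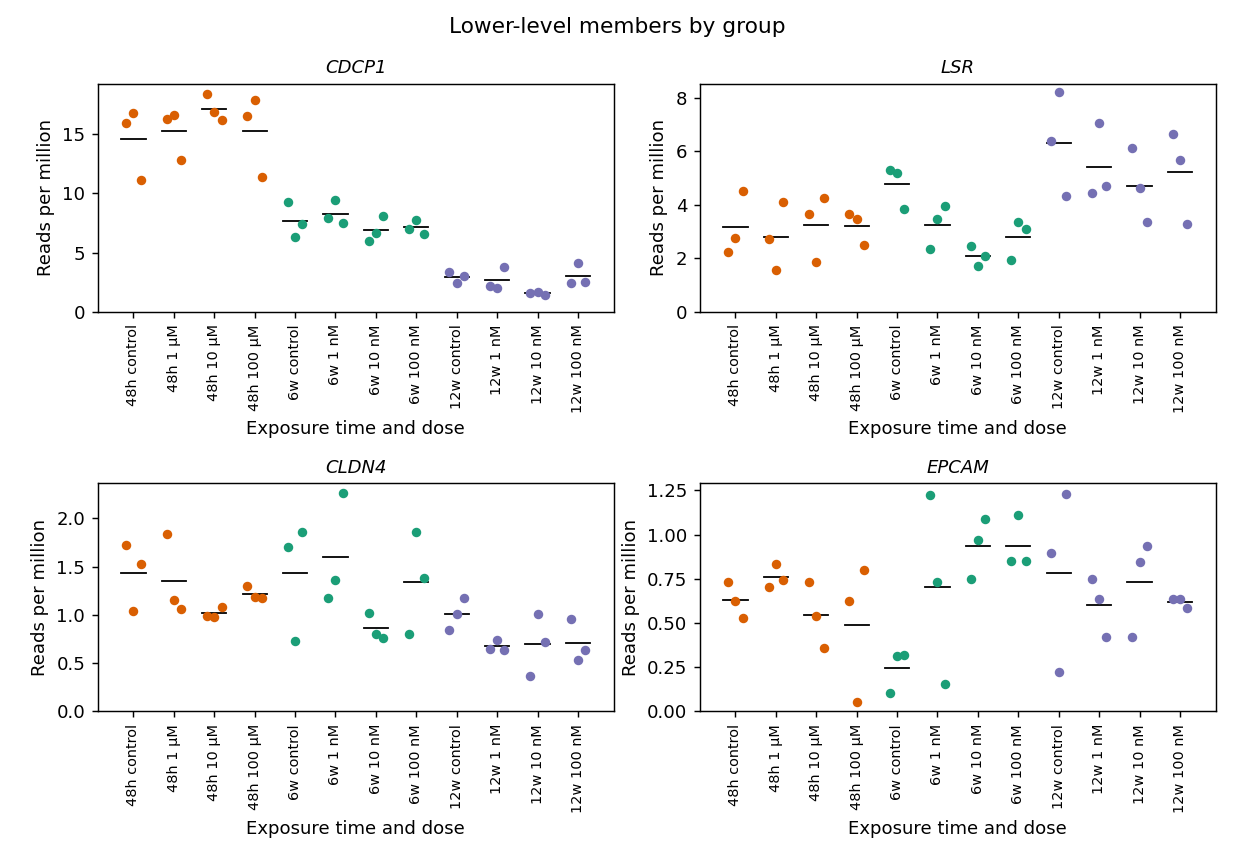
RPM (reads per 1000000 reads of the library) of CDCP1, LSR, CLDN4 and EPCAM in each library of the 12 groups, coloured by exposure time (µM doses at 48 h, nM doses at 6 and 12 weeks), with a bar at the mean of 3 libraries. CDCP1 has medians of 16.4 at 48 h, 7.46 at 6 weeks and 2.43 at 12 weeks with no overlap, and the 6-week controls hold 0.103 to 0.319 of EPCAM.

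The proportions of the keratins to each other differed between exposure times as well. The ratio of KRT8 to KRT7 reads within a library, which no scaling of the library touches, was 0.875 ± 0.0732 (SD, n = 12) at 48 h, 0.725 ± 0.0423 at 6 weeks and 0.311 ± 0.0326 at 12 weeks, and its highest value at 12 weeks was 0.379 against a lowest of 0.649 at 6 weeks. KRT8 to KRT18 was 0.594 ± 0.0544, 0.600 ± 0.103 and 0.328 ± 0.0562, with 0.406 as the highest at 12 weeks and 0.413 as the lowest at 6 weeks. KRT7 to KRT18 was 0.684 ± 0.0867, 0.830 ± 0.142 and 1.06 ± 0.149. KRT8 was thus lower relative to both other keratins at 12 weeks than at 6 weeks, in the control libraries (0.762 ± 0.0209 to 0.3001 ± 0.0310 for KRT8 to KRT7, n = 3 each) as in the exposed ones. No ratio could pass by dose, because 3 libraries against 3 allow no two-sided exact permutation p below 0.1. Of 27 such tests of a dose against its control, p was 0.1 for KRT8 to KRT7 at 100 nM for 6 weeks (0.685 against 0.762) and at 100 µM for 48 h (0.799 against 0.885). In both, every treated library lay below every control, with 0.726 as the highest against 0.739 as the lowest control, and 0.836 against 0.856. All 27 had an adjusted p of 0.864 or more.

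Once group means were removed, the keratins varied together from library to library. Over 36 libraries the deviations of KRT8 and KRT7 had r = 0.991, those of KRT18 and KRT7 0.961 and those of KRT18 and LSR 0.935, as a description of libraries that share depth and ribosomal share. CDCP1 (0.735 with KRT7) and CLDN4 (0.755 with KRT7) followed less closely, and KRT19, in spite of its few reads, had 0.801 with KRT7. ESRP2 had -0.11 and EPCAM -0.32 with KRT7. Among 10488 genes with a mean of at least 50, the closest to KRT7 were KRT8 (0.991), ANGPTL4 (0.988) and CAPG (0.988), and the closest to KRT8 were KRT7, ANGPTL4 (0.990) and TYSND1 (0.987). KRT18 was nearest to SNRPN (0.989), HYI (0.987) and TCTA (0.982), and not to the other keratins. LSR was nearest to ZMAT5 (0.972), LSM7 (0.972) and LAGE3 (0.970), and CDCP1 to RASSF4 (0.941), PLEK2 (0.932) and OTUB2 (0.929).

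The wider epithelial list held 56 further genes of junctions, desmosomes, keratins, basement membrane and epithelial transcription factors. Of these 54 had values, 29 a mean of at least 10 and 15 a mean below 1. The most abundant were LAMB3 (mean 6722), CTNNA1 (6559), ITGB4 (3571), CTNND1 (2829), ITGA6 (2730) and CTNNB1 (1824), genes of the basement membrane anchor and of the catenins that link cadherins to actin and are used by endothelial cells too. At 6 weeks and 10 nM, 12 of the 29 tested had a higher and 17 a lower value, and 0 passed limma or edgeR. The median log2 difference in deposited signal was -0.19 beside 0.05 over all genes. In RPM, a different scale, the summed level of the list was higher, with 1698 to 2486 against 1063 to 1417 in the controls. Abundant genes such as CTNNA1 and LAMB3 (means of 366 and 349 RPM over 36 libraries) weigh most in that sum. DESeq2 called 7 of the 29, where it called 30.4% of all genes, and 6 had an unadjusted limma p below 0.05, where 44% of all genes did. Across exposure times in RPM, 3 of 28 were higher in every 12-week library than in every 48 h library (CLDN1, KRT80 and GRHL2, named after their values were seen), beside 1.75% of all tested genes, and CLDN1 and KRT80 also against every 6-week library, beside 1.15%. For KRT80 the margin was narrow (80.9 RPM as the lowest at 12 weeks, 80.8 as the highest at 48 h), and in deposited signal CLDN1 alone of the 3 kept its separation, beside 2.06% of all tested genes against 48 h and 1.46% against 6 weeks. In the other direction and in RPM alone, ITGB4 was lower in every 6-week than in every 48 h library (beside 0.326% of all tested genes) and AP1M2 in every 12-week than in every 6-week library (beside 1.87%). In deposited signal alone F11R was lower in every 6-week than in every 48 h library, beside 0.243%.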

How the data were processed

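RNA of 36 EA.hy926 libraries was sequenced as 150 bp pairs, per the labels' protocols. Each deposited value is a signal, a gene's read count over the size factor that the authors gave its library. HISAT, Bowtie2, DESeq2 and GRCh38.p14 are named without versions, per the submitters' processing notes. Counting tool and strand: not given in the sources used here. Whole reads were recovered from the step between values (100% within 0.01 of a read). Each exposure time has 1 table; 1 entry at 6 weeks names no gene and was left out.

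limma 3.58.1 (trend, 1 mean per group, 12 libraries) was fitted to log2(signal + 1) of all genes whose mean reached 10, two-sided, with a Benjamini-Hochberg adjusted p under 0.05 over the 12233 (48 h), 12201 (6 weeks) or 12304 (12 weeks) such genes. Such folds understate low genes. Differences between long exposures used 24 libraries and 12037 genes. Alternatives used edgeR 4.0.16, DESeq2 1.42.0, other pseudocounts, filters, scalings, covariates and left-out libraries. The scripts were tested on simulated data. RPM (reads per 1000000) used the recovered totals. Lengths came from GENCODE transcripts, positions and start-site windows from RefSeq GRCh38.p14. Replicates are labelled biological; p-values measure only the spread between these samples. The labels do not say that replicate numbers pair libraries. Of 18 pairs of groups within a time, 1 (6-week control and 10 nM, r of deviations from group means 0.343 to 0.665) had all 3 same-numbered correlations above 0.1, and over all pairs 20 of 54 did.

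The members and the gene lists were chosen with earlier results of these data known. All 10 members were named, any list gene past the threshold and otherwise up to 6 of the highest mean per list, and, for members with a mean of at least 50 in every table, the 3 genes most alike in deviations from group means.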

Additional observations from a re-analysis of the deposited data

Results flagged for a closer look

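In normalized reads EPCAM differed in direction between the long exposures. On that scale every 6-week library of the 10 nM and 100 nM groups lay above the mean of its controls. At 12 weeks every library of these groups lay below it. In RPM the 10 nM libraries at 12 weeks had 0.419, 0.847 and 0.938. Their control mean was 0.784, so on that scale they lay on both sides of it. The difference of the 2 effects, 12 weeks minus 6 weeks, was -1.48 on the log2 scale at 10 nM (limma, unadjusted p 0.0262, adjusted p 0.906) and -1.67 at 100 nM (unadjusted p 0.0139, adjusted p 1.00), so neither passed over 12037 genes, and 0% of genes did. The 6-week controls held 2, 6 and 6 EPCAM reads and the 12-week controls 17, 4 and 23, which overlap, beside 14 to 21 reads in the exposed groups at 6 weeks and 8 to 17 at 12 weeks. Whether the few reads account for the opposite directions was not tested. EPCAM was flagged for these directions, so the unadjusted p-values rest on the values that selected it. At 6 weeks 30.6% of all tested genes were higher in every 10 nM library than in every control, and 22.9% at 100 nM. How many of all genes reversed by 12 weeks was not counted, so the reversal is not shown to be unusual. The 2 doses share the controls of their time, so they are not separate observations.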

How the results depend on the processing

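Of 594 alternative values of 23 of the log2 differences given, 578 kept their direction. The 23 do not include the 12-week differences of 100 nM from the controls. Of the 594, 300 left out 1 library and so shared most libraries with the main fit, and 1 of these reversed. Of the other 294, 15 reversed. Library quality weights, estimated gene by gene after the default REML estimate had not converged (a choice made after seeing the data), raised the calls most. Brackets give the calls among the 7 tested members. Of 12233 genes tested at 48 h they gave 1 at 1 µM, 6219 at 10 µM (4), 6792 at 100 µM (5) and 7371 for the trend (5). Of 12201 at 6 weeks they gave 718 at 1 nM (1, EPCAM), 8471 at 10 nM (6, and 17 of 29 tested of the wider epithelial list), 5388 at 100 nM (5) and 8375 for the trend (6). Of 12304 at 12 weeks they gave 1 at 1 nM and 4407 at 10 nM (4). For the 1 nM difference between long exposures they gave 171 of 12037 (1, EPCAM). DESeq2 called 3706 (30.4%) at 6 weeks and 10 nM (4, and 7 of the wider list), 3174 (26%) for that trend (5), and 1 or 2 in the other comparisons where it called any, with none of the members. The 2 groups alone gave 4742 (38.9%) at 6 weeks and 10 nM (5, and 7 of the wider list). Quantile normalization gave 1 gene for the 6-week trend. The cause of these differences was not tested.

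Directions turned mostly with a covariate. With the ribosomal share, the 10 nM values at 6 weeks became 0.167 (KRT18), 0.457 (KRT7), 0.343 (KRT8), 0.0375 (CDCP1) and 0.192 (CLDN4), those at 100 nM 0.0585 (KRT7) and 0.327 (CLDN4), and those at 100 µM -0.088 (KRT7) and -0.21 (KRT18). With the first principal component they became 0.128 (KRT7), 0.0362 (KRT8), 0.0072 (CDCP1) and 0.0974 (CLDN4) at 10 nM, and 0.0449 (KRT7) and 0.420 (CLDN4) at 100 nM. EPCAM had r = 0.0152 with that share within 12 weeks.

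Leaving out 1 library at a time gave 0 to 5946 genes (48.7%), 0 to 6 of the 7 tested members and 0 to 9 of the wider list at 6 weeks and 10 nM. It gave 0 to 7084 genes (58.1%) and 0 to 6 members for that trend, and 0 to 1 gene at 1 nM. EPCAM at 100 µM ran from -1.04 to 0.289. With the replicate block over all libraries of a time limma called 0 genes in all 15 comparisons. With the block and only the 2 groups at 6 weeks and 10 nM, added after seeing the data, it called 7721 genes (63.3%), all 7 tested members and 18 of the wider list. At 1 to 23 reads a library, depth limits EPCAM, and CDH1 was not detectable. Scaling by total reads (0 genes called), coding transcripts for lengths and deposited signal across times were added after seeing the data.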

Other observations

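Some epithelial genes that are not among the 10 stood higher at 12 weeks, and they are named here after their values were seen. Others of the wider list stood lower. GRHL1 had medians of 1.25, 1.71 and 0.664 RPM at 48 h, 6 weeks and 12 weeks, and AP1M2 1.53, 2.15 and 0.823. TJP3 had means of 49.5, 25.0 and 7.20 normalized reads. In RPM 3 of 28 were higher in every 12-week than in every 48 h library, beside 1.75% of all tested genes, and 0 were lower, beside 2.24%. CLDN1, a tight junction claudin, ranged over 1.59 to 15.5 RPM in the 48 h libraries, over 2.63 to 15.2 in those of 6 weeks and over 17.1 to 124 (median 50.2) in those of 12 weeks, while CLDN4 in the same libraries stayed at or below 1.18 at 12 weeks. ESRP1, the closest relative of ESRP2, had 4 reads in the 12 libraries of 48 h, 4 at 6 weeks and 122 at 12 weeks, when each library held at least 1. GRHL2, a transcription factor of epithelial identity, had medians of 6.22, 8.28 and 17.3 RPM. KRT80 had 54.6 to 80.8 at 48 h and 80.9 to 140 at 12 weeks. CDH1 and the desmosome gene DSP had 0 reads in every library of 6 and 12 weeks. In deposited signal GRHL2 and KRT80 overlapped between 48 h and 12 weeks and CLDN1 did not. Passage, harvest and sequencing went with time, and their part in these values was not tested.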
